A study of Mus musculus with 6 samples.

Results

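The cytoplasmic ribosomal proteins were described in hematopoietic stem cells (HSCs) of the mouse fetal liver with and without Dpy30, large subunit against small subunit and paralog against parent. Members were chosen by symbol: Rpl or Rps followed by a number with its letter or digit suffixes, plus Rplp0, Rplp1, Rplp2, Rpsa and Rps4x, without names ending in -ps, and with at least 10 counts in at least 3 of the 6 samples. This gave 83 members of the 38926 symbols listed, 48 in the large subunit and 35 in the small subunit. The 5 symbols that had the name but not the counts were Rpl10l, Rpl39l, Rpl3l, Rps12l1 and Rps12l2. Among the 83 members, Rps3a2, Rps3a3 and Rps4y2 (an older symbol of Rps4l) are annotated as processed pseudogenes, and the other members are protein coding.

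Each ribosome joins a small subunit, which holds the messenger RNA and reads its codons, to a large subunit, which joins the amino acids and passes the chain through its exit tunnel. Every cytoplasmic ribosome needs its proteins in matched amounts, and vertebrate ribosomal protein transcripts usually open with a run of pyrimidines that places their translation under growth signalling. In HSCs protein synthesis is kept low, and inherited loss of 1 copy of several ribosomal protein genes causes Diamond-Blackfan anemia, a failure of red cell production. Mammalian genomes also carry many processed pseudogenes of these genes, intronless copies made from reverse-transcribed messenger RNA.

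The cells were HSCs sorted by surface markers from livers of E14.5 embryos, and polyadenylated RNA was sequenced. The 3 control samples had the genotype Vav-Cre; Dpy30F/+ and the 3 knockout samples Vav-Cre; Dpy30F/-, so both carried the Cre transgene, which is active in blood cells, and a floxed Dpy30 allele, and the second allele was wild type in controls and null in knockouts. Each of 3 litters gave 1 control and 1 knockout, numbered here by litter. Whether a sample came from 1 embryo or a pool is not given in the sources used here, and p-values measure only the spread between these 6 samples.

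Gene counts per library ran from 31.9 to 43.4 in units of 1000000 counts, of which mitochondrial genes took 49.2% to 67.7%. Levels are counts per 1000000 counts of a library (CPM) scaled by edgeR's TMM factors. Dpy30, the targeted gene, encodes a shared core subunit of the complexes that methylate histone H3 at lysine 4. It stood at 24.6, 24.2 and 31.6 CPM in controls 1 to 3 and at 7.93, 5.95 and 13.7 CPM in knockouts 1 to 3, so each knockout library was below each control, although the fold change did not pass the test (log2 fold change -1.55, SE 0.46; edgeR quasi-likelihood adjusted p = 0.672). Of 14 HSC markers all had counts, and their summed level was 742 to 788 CPM in controls, 954 and 1047 CPM in knockouts 1 and 2 and 335 CPM in knockout 3. The 12 measured myeloid markers summed to 146 to 256 CPM in controls and to 522, 455 and 1421 CPM in knockouts 1 to 3. Erythroid markers summed to 1455 to 2645 CPM in controls and to 1109, 1325 and 3093 CPM in knockouts, and lymphoid markers to at most 3.21 CPM in any library, with Cd3e and Dntt of the 7 lymphoid markers at 0 throughout. The 5 endothelial markers, some of which HSCs share, summed to 1077 to 1709 CPM in controls, to 1567 and 1625 CPM in knockouts 1 and 3 and to 135 CPM in knockout 2. Megakaryocyte markers summed to 80.9 to 142 CPM in controls and 53.8 to 119 CPM in knockouts, and hepatocyte markers to at most 23.3 CPM in any library. The part of these marker differences in the values below was not tested, and in a bulk sample fewer cells of a type and less RNA per cell cannot be told apart.

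Most ribosomal protein transcripts were lower in the knockouts by a small amount, and no single member passed the test. The log2 fold change was below 0 for 38 of 48 large-subunit members (median -0.22) and for 31 of 35 small-subunit members (median -0.36), against 49.2% of all 13646 genes tested (median 0.01). The members ran from -1.40 (Rpl12) to 0.54 (Rpl24) in the large subunit and from -1.96 (Rps27) to 0.89 (Rps27l) in the small subunit. With edgeR's quasi-likelihood test and Benjamini-Hochberg adjustment over all genes, 0 members and 0 genes (0.0%) passed 0.05, and the smallest adjusted p of any gene was 0.452. In simulated data that gave every gene a coefficient of variation between replicates of 0.8, near the common value here (0.82), edgeR called 0% of genes changed by 3 on the log2 scale. At 0.2 it called 100%. Members with many counts spread less than the common value (SE of the log2 fold change 0.20 for Rplp0 and 0.21 for Rpl7), so the 0% does not apply to them. For changes as small as most of those here, a lack of calls does not show that a member was unchanged. DESeq2 called 139 genes (1.02%) and limma-voom 0, and neither called a member. At an unadjusted edgeR p under 0.05, where 888 genes lay, 4 members were lower (Rpl9, Rps15a, Rpl12 and Rpl35a; 2.24% of all genes) and 1 was higher (Rps27l; 4.26% of all genes).

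The direction depended on the scaling of the libraries. With library size alone in place of TMM factors, the median of all genes moved to 0.23, and 26 large-subunit and 23 small-subunit members had a log2 fold change below 0. Relative to the median of all genes, the large-subunit median was -0.23 with TMM and -0.25 with library size, and the small-subunit median was -0.37 and -0.39. With the litter as a block the all-gene median was -0.12, and the subunit medians relative to it were -0.13 and -0.24.

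**Figure D1:**
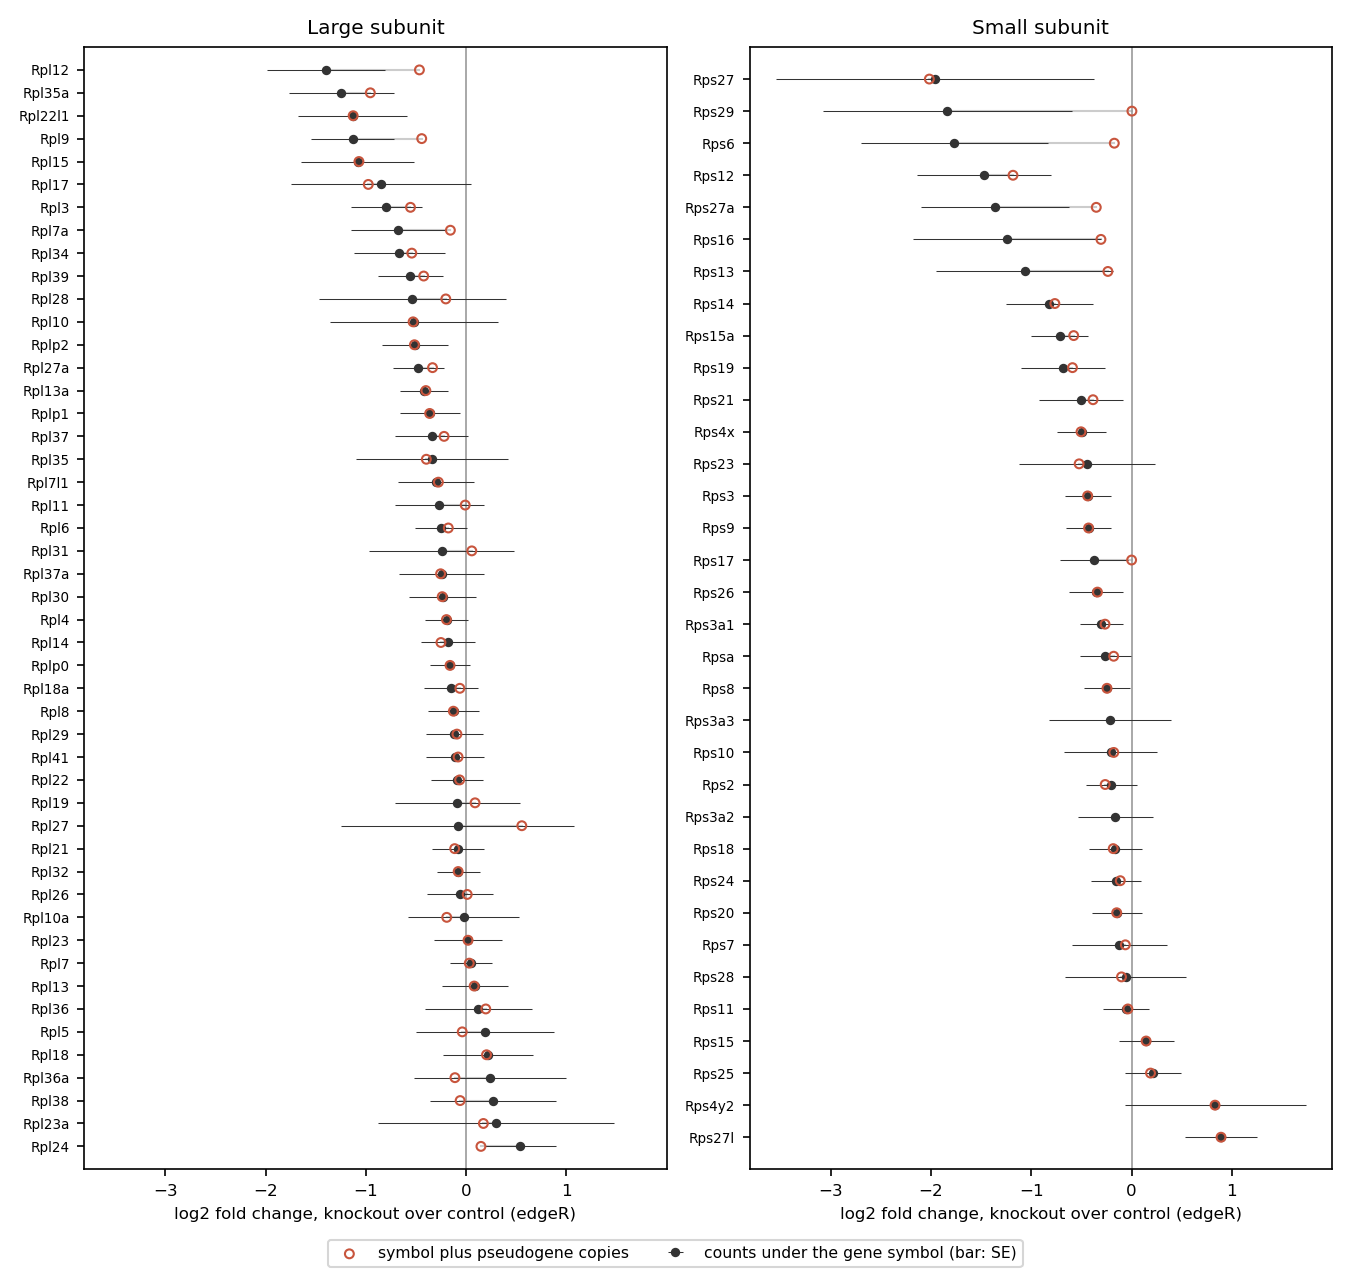
The log2 fold change of the members reported here, knockout over control, from edgeR, with large-subunit symbols on the left and small-subunit symbols on the right. Filled points are counts under the gene symbol with the standard error as a bar, and open circles are the symbol plus its pseudogene copies, which lie nearer to 0 than the filled points for Rps6, Rps29, Rpl12 and Rps27a.

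In 19 of 83 members (22.9%) every knockout library was below every control library, against 7.74% of all genes tested, and in 1, Rps27l, every knockout was above every control, against 6.39%. Small-subunit members made up 12 of the 19 (34.3% of that subunit) and large-subunit members 7 (14.6%). Among the small-subunit members were Rps3, Rps3a1, Rps4x, Rps6, Rps9, Rps12, Rps13, Rps15a, Rps23, Rps27a and Rps29, and the large-subunit members were Rpl3, Rpl9, Rpl12, Rpl22l1, Rpl27a, Rpl35a and Rpl39. Within litters, 27 members (32.5%) were lower in the knockout of all 3 litters, against 15.9% of all genes, and 2 were higher (Rpl24 and Rps27l), against 12.3%.

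The litters did not contribute equally. In litter 1 the median difference of the members was -0.49 on the log2 scale and 74 of 83 were lower in the knockout. In litter 3 the median was -0.29 with 58 lower, and in litter 2 it was -0.03 with 45 lower. The medians of all genes were 0.02, -0.08 and -0.17 in litters 1, 2 and 3. Relative to all genes, the members were thus lower in litters 1 and 3, less so in litter 3, and slightly higher in litter 2. Among large-subunit members alone, litter 2 had a median of 0.07 and 20 of 48 lower. Knockout 1 was the lowest of the 6 libraries for 35 members and knockout 3 for 27, while control 3 was the highest for 27 and control 1 for 26. The libraries of litter 1 also stood apart in scaling, with TMM factors of 0.75 (control 1) and 1.25 (knockout 1), against 0.99 to 1.05 in the others. Control 1 had the highest mitochondrial share (67.7%). Knockout 1 had the most reads outside genes (26.3%, against 12.5% to 19.6%). The part of these library differences was not tested. Without knockout 1 the large-subunit median was -0.08, against an all-gene median of -0.06 in that fit, and the small-subunit median was -0.32.

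The count of a ribosomal protein gene is shared with its processed pseudogenes, and members differed widely in how much lay under the symbol. In these count lists 717 features were taken as copies of 76 members, and 592 of them had counts. Of these copies, 683 are processed pseudogenes that aligned to a member with at least 90% identity over at least 50% of the copy, and 34 were taken from their name alone, a member's symbol with a -ps suffix. The copies taken by name held 1.57% of all copy counts, most of it in Rpl9-ps6, Rpl36a-ps1, Rpl10-ps3 and Rps12-ps3, which GENCODE annotates as protein coding. With aligned copies alone, added after seeing the data, 36 of 48 large-subunit and 27 of 33 small-subunit members had a log2 fold change below 0. Over all libraries, the member symbols held 62.5% of the counts of symbol plus copies. The median symbol held 65.4% of its own sum, 29 members held less than their copies did, and 13 held under 20%. The smallest shares were those of Rps29 (1.01%), Rpl5 (3.10%), Rpl10a (4.33%), Rpl23a (4.56%), Rps16 (5.37%), Rpl31 (6.17%) and Rps6 (6.43%).

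For each of the first, second and last of these, nearly all remaining counts lay under a single copy of identical sequence. Rps29, a zinc-binding protein of the small-subunit head, lies at chr12:69157722-69159186 (minus strand, GRCm38), and its copy Gm14303 at chr2:172509521-172509691 held 21668 counts over the 6 libraries. Rpl5, which carries the 5S rRNA, lies at chr5:107900502-107909005 (plus strand), and its copy Gm15500 at chr7:114705217-114706235 held 58422 counts. Rps6, a kinase target of growth signalling at chr4:86854660-86857412 (minus strand), has the copy Rps6-ps4 at chr2:75191073-75191822 with 24333 counts. Each of these 3 copies was identical to its parent over the aligned length. The 60 coding bases around 1 exon junction of each parent transcript, from GENCODE M21 and 5′ to 3′, are shown because the copy matches them without a gap. Capitals mark the base on either side of the junction, which falls between exons 3 and 4 of Rps6, exons 1 and 2 of Rps29 and exons 5 and 6 of Rpl5.
Rps6: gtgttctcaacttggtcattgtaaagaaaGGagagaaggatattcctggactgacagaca
Rps29: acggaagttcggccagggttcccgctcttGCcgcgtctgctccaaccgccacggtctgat
Rpl5: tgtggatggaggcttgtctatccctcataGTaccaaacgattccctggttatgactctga
The copies hold the same 60 bases with 0 mismatches. In the copy the run is unbroken in the genome, and in the parent an intron divides it at the capitals.

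The fold change of symbol plus copies (the sum) was set beside that of the symbol. The sum contains the symbol, so by construction they can differ much where the symbol holds a small share and little where it holds most. Among the 13 members whose symbol held under 20%, they differed by a median of 0.33 on the log2 scale, and among all 81 members with a sum by 0.06. The standard deviation of the fold changes across members was 0.54 by symbol and 0.40 by sum, and that of the control level per kilobase of exon, in log2 CPM, was 1.83 and 1.51. By symbol 12 of 83 members had a log2 fold change below -1, a share near the 12.9% of all genes tested. By sum 4 of 81 did, against 12.9% of all genes in that fit: Rps27, Rps12, Rpl22l1 and Rpl15. These sums were chosen after seeing the data.

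The shift below 0 was smaller with the copies added but kept its direction for most members. With the copies added, 37 of 48 large-subunit members (median -0.17) and 27 of 33 small-subunit members (median -0.25) had a log2 fold change below 0, since Rps3a2 and Rps3a3 were then part of the sum for Rps3a1. The sign was the same by symbol and by sum in 72 of 81 members. At TMM-scaled levels, every knockout was below every control in 17 of 81 sums (7.75% of all genes in that fit), and 14 of these were also among the 19 symbols above. By litter, the median of the sums was -0.47, 0.05 and -0.20 in litters 1, 2 and 3, against 0.02, -0.08 and -0.17 for all genes. Relative to all genes, the sums were thus clearly lower in litter 1, near them in litter 3 and higher in litter 2. With the litter as a block, the medians of the sums relative to all genes were -0.05 for the large and -0.11 for the small subunit. With edgeR 0 sums passed the adjusted threshold (0.0% of genes), and with DESeq2 0 passed, against 0.982% of genes. At an unadjusted edgeR p under 0.05, 1 sum was lower, that of Rps15a (2.16% of genes), and 1 higher, that of Rps27l (4.26%).

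In the small subunit, the differences of Rps6, Rps27a and Rps29 by symbol shrank when their copies were added. Rps6 stood at 9.43, 14.9 and 11.5 CPM in controls and at 5.21, 4.91 and 0.40 CPM in knockouts 1 to 3, with knockout 3 holding 14 counts (log2 fold change -1.77, SE 0.93; edgeR adjusted p = 0.797). With copies, Rps6 was at 113, 118 and 153 CPM in controls and 106, 130 and 104 CPM in knockouts, and the groups overlapped (log2 fold change -0.17). Rps27a, which is made as a fusion with ubiquitin, moved likewise from -1.36 by symbol to -0.35 by sum, although its knockouts stayed below its controls, at 20.6 to 24.2 against 25 to 31.4 CPM by sum. Rps29, named here after its values were seen, went from -1.84 by symbol to 0.00 by sum.

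Other small-subunit members kept their difference with the copies added. Rps12 was at 12.2, 7.11 and 14.4 CPM in controls and 3.15, 6.04 and 2.97 CPM in knockouts, with no overlap (log2 fold change -1.47, SE 0.67; edgeR adjusted p = 0.775; by sum -1.18). Rps15a, an early-assembling protein of the small-subunit body, was at 95.5, 88.7 and 73.1 CPM in controls and 52.4, 67.0 and 36.9 CPM in knockouts, again with no overlap. The difference was -0.72 on the log2 scale (SE 0.29; edgeR adjusted p = 0.753), and -0.58 by sum. Rps14, lost in the 5q deletion of human myelodysplastic syndrome, was at 62.4, 50.9 and 35.1 CPM in controls and 22.8, 44.3 and 17.0 CPM in knockouts, so knockout 2 lay above control 3 (log2 fold change -0.82). Rps19, the gene most often mutated in Diamond-Blackfan anemia, was at 45.7, 31.7 and 28.0 CPM in controls and at 16.0, 16.5 and 33.0 CPM in knockouts. Knockout 3 overlapped the controls there, with a difference of -0.69 on the log2 scale (SE 0.42; edgeR adjusted p = 0.834).

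Rps3 and Rps4x were among the small-subunit members with the most counts, and Rps3 has almost no reads on copies. Rps3, at the entry of the messenger RNA channel, stood at 337, 329 and 357 CPM in controls and 237, 322 and 197 CPM in knockouts (log2 fold change -0.44). Rps4x was at 157, 158 and 216 CPM in controls and 141, 137 and 98.6 CPM in knockouts (log2 fold change -0.50). In both the groups did not overlap, but knockout 2 came within 10 CPM of a control for Rps3. Rpsa, the laminin receptor homolog needed for spleen formation in humans, was at 49.9 to 59.0 CPM in controls and 39.1, 42.7 and 52.0 CPM in knockouts, with overlap in knockout 3 (log2 fold change -0.26).

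**Figure D2:**
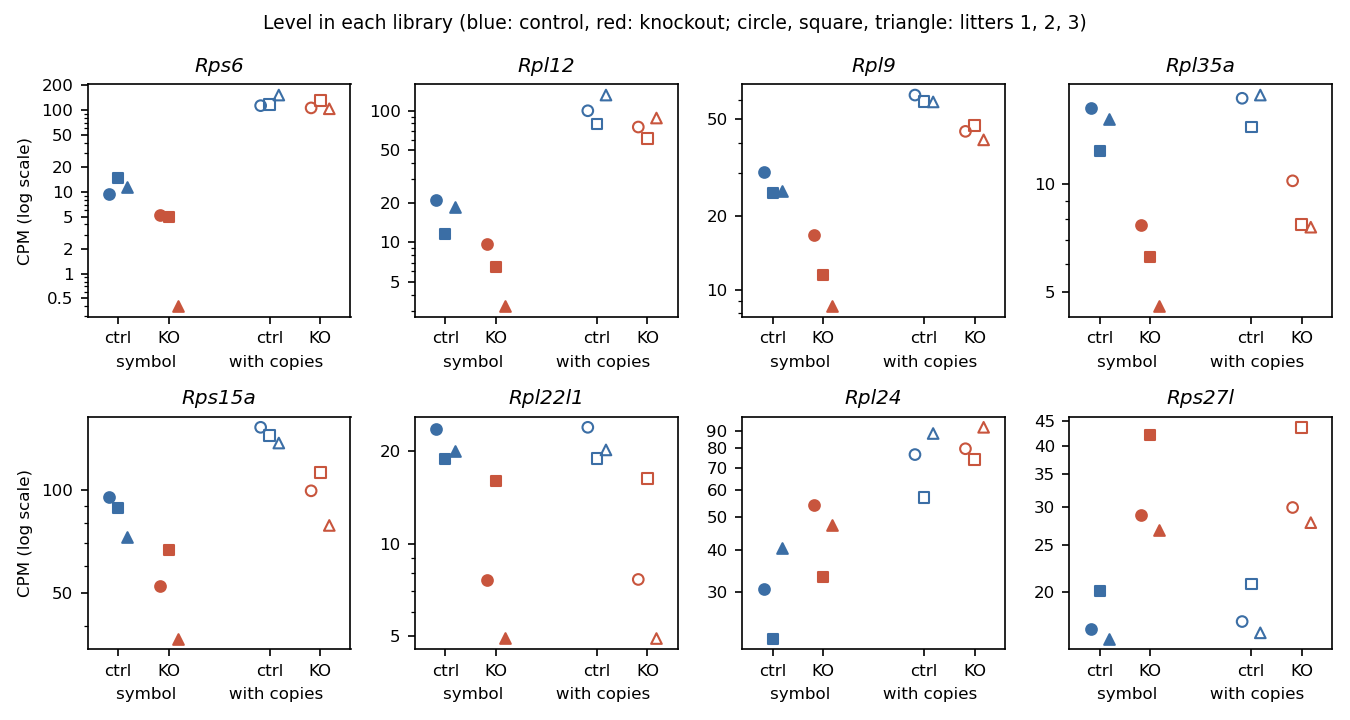
Levels of 8 members in each library, in CPM on log axes, for the gene symbol (filled) and for symbol plus pseudogene copies (open). Rps6 knockouts lie below the controls by symbol and overlap them with copies, whereas Rpl35a, Rps15a, Rpl22l1 and Rps27l stay apart in both.

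In the large subunit, the members with the most counts, Rpl4, Rplp0 and Rpl8, had overlapping groups and log2 fold changes smaller in size than their SE. Rpl4, which lines the exit tunnel, had the highest count of all members, at 903, 769 and 916 CPM in controls and 593, 933 and 735 CPM in knockouts (log2 fold change -0.19). Knockout 2 was above every control and knockouts 1 and 3 were below every control. Rpl8, near the peptidyl transferase center, was at 160 to 202 CPM in controls and 117 to 201 CPM in knockouts (log2 fold change -0.13, but 0.06 with library size alone). Rpl3, which also reaches that center, was at 69.0, 46.9 and 64.3 CPM in controls and 39.9, 43.2 and 20.6 CPM in knockouts, below each control (log2 fold change -0.80, SE 0.35; edgeR adjusted p = 0.775; by sum -0.56, with overlap). Rpl39, the small protein inside the tunnel, was at 31.2 to 43.9 CPM in controls and lower in each knockout, with knockout 3 lowest at 20.8 CPM (log2 fold change -0.56). Rpl10, the last protein to join the maturing subunit, was at 4.04 to 14.6 CPM in controls and 1.87 to 12 CPM in knockouts (log2 fold change -0.52), a range wider than the difference.

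The stalk proteins recruit elongation factors to the ribosome, and all 3 were lower with overlap between groups. Rplp0, its base, was at 176, 177 and 212 CPM in controls and 150, 186 and 169 CPM in knockouts (log2 fold change -0.16, but 0.02 with library size alone). Rplp1 was at 52.6, 42.4 and 47.3 CPM in controls and 27.1, 43.7 and 40.2 CPM in knockouts (log2 fold change -0.36). Rplp2 was at 46.9, 36.1 and 53.1 CPM in controls and 32.2, 40.3 and 23.0 CPM in knockouts (log2 fold change -0.51). Rpl12, which sits at the foot of the stalk, had the largest difference of the large subunit by symbol. It was at 21, 11.6 and 18.6 CPM in controls and 9.64, 6.5 and 3.26 CPM in knockouts (log2 fold change -1.40, SE 0.59; edgeR adjusted p = 0.761). By sum it was at 79.3 to 131 CPM in controls and 61.7 to 87.9 CPM in knockouts, with overlap and a log2 fold change of -0.47, since the symbol held 13.0% of the sum and the identical copy Gm10275 nearly all the rest.

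Rpl5 and Rpl11 form the 5S ribonucleoprotein, which binds Mdm2 when ribosome assembly fails. By symbol Rpl5 was at 5.66, 11.7 and 6.51 CPM in controls and at 7.30, 4.63 and 15.3 CPM in knockouts, a log2 fold change of 0.19 that was -0.41 without knockout 3. With copies, Rpl5 was at 263, 238 and 328 CPM in controls and at 243, 290 and 273 CPM in knockouts, with full overlap (log2 fold change -0.04). Rpl11 was at 103, 79.6 and 107 CPM in controls and 75.2, 86.6 and 126 CPM in knockouts by sum (log2 fold change -0.01), after -0.27 by symbol. Neither protein's transcript differed by more than the spread between libraries.

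Rpl35a and Rpl9 were lower in every knockout by symbol and by sum. Rpl35a, a Diamond-Blackfan anemia gene, was at 16.3, 12.4 and 15.3 CPM in controls and 7.70, 6.26 and 4.57 CPM in knockouts (log2 fold change -1.25, SE 0.53; edgeR adjusted p = 0.761; by sum -0.96). Rpl9 was at 30.5, 24.8 and 25.3 CPM in controls and 16.8, 11.5 and 8.54 CPM in knockouts (log2 fold change -1.13, SE 0.41; edgeR adjusted p = 0.729). With its copies Rpl9 was at 59.0 to 63.0 CPM in controls and 41.2 to 47.2 CPM in knockouts, a smaller but still separate difference (log2 fold change -0.44). With aligned copies alone, which leaves out Rpl9-ps6, it was -0.81. Rpl24, which bridges the subunits, was the large-subunit member higher in all 3 litters, at 30.5, 21.7 and 40.4 CPM in controls and 54.4, 33.1 and 47.4 CPM in knockouts (log2 fold change 0.54, SE 0.35; by sum 0.15). Knockout 2 lay below control 3 for Rpl24, so the groups overlapped. Rpl38, known for its patterning phenotype in the tail short mouse, was at 8.46, 8.18 and 6.44 CPM in controls and 7.15, 5.70 and 15 CPM in knockouts. Its log2 fold change was 0.27 by symbol and -0.06 by sum, and -0.25 by symbol without knockout 3.

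Summed over members at TMM-scaled levels, both subunits were lower in the knockouts, the small subunit slightly more. Large-subunit symbols summed to 3133, 2676 and 3269 CPM in controls and to 2194, 2952 and 2646 CPM in knockouts, with knockout 2 above control 2. Small-subunit symbols summed to 2125, 1943 and 2181 CPM in controls and to 1513, 1855 and 1684 CPM in knockouts, with no overlap. The knockout mean was 85.8% of the control mean for the large subunit and 80.8% for the small subunit. As a share of nuclear gene counts, both subunits together took 1.19% ± 0.117 of the control and 0.953% ± 0.106 of the knockout counts (SD, n = 3 per genotype). Knockout 2 (1.074%) lay above control 2 (1.064%). The share does not depend on the scaling factors, but it leaves out mitochondrial counts, which took 67.7% in control 1 and 49.2% in knockout 1. With library size alone, which keeps them in the total, the subunit medians were -0.03 (large) and -0.16 (small) on the log2 scale.

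The ratio of large to small subunit counts was similar in the genotypes. On the log2 scale it was 0.56, 0.46 and 0.58 in controls and 0.54, 0.67 and 0.65 in knockouts, a mean difference of 0.08 that is close to the spread within each group (SD 0.06 and 0.07, n = 3 per genotype) and has overlapping values. With the copies added, the difference was 0.05 (from 0.71 ± 0.05 to 0.77 ± 0.06; SD, n = 3 per genotype). It was also 0.05 without Rpl4 and Rps3, the members with the most counts. The summed levels with copies were 4971 ± 499 and 4371 ± 645 CPM for the large subunit and 3028 ± 229 and 2563 ± 291 CPM for the small subunit for control and knockout (SD, n = 3 per genotype).

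**Figure D3:**
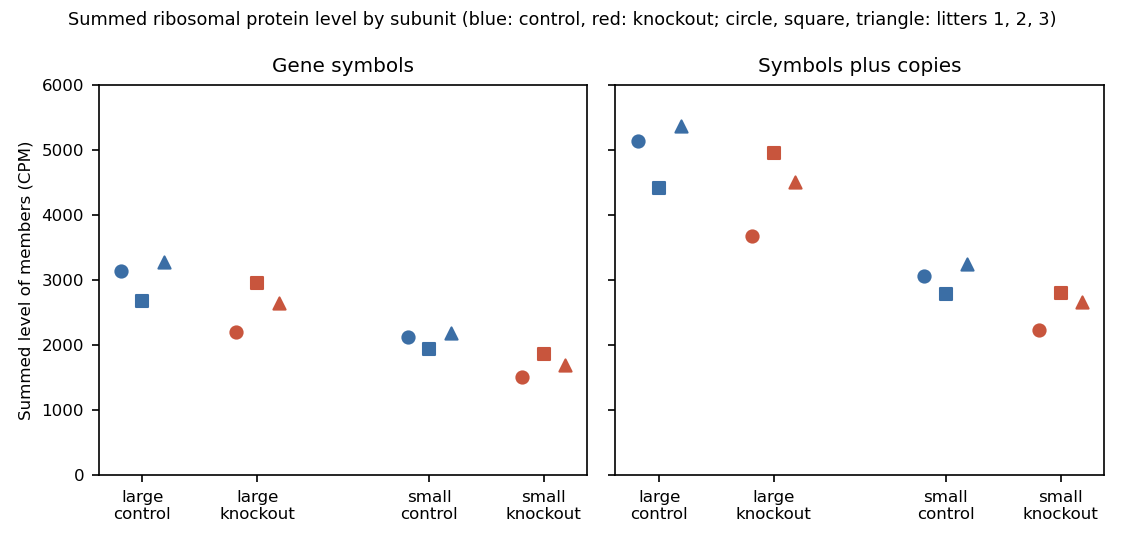
Summed level of the large-subunit and small-subunit members in each library, in CPM, for gene symbols (left) and for symbols plus pseudogene copies (right). Small-subunit knockouts lie below the controls by symbol, while knockout 2 lies above control 2 for both subunits with copies.

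Paralogs are encoded by separate genes and can replace the parent protein in some ribosomes or tissues. Of 8 pairs fixed, 5 had counts for both genes, and their log2 ratio within a library does not depend on the scaling. Rpl22l1, the paralog of Rpl22, a protein needed for T cell development that is known to repress its paralog, had the ratio to its parent that differed most downward: it was -2.11, -1.95 and -2.60 in controls and -3.41, -2.49 and -4.46 in knockouts. Knockout 2 lay between the controls, and the difference of -1.23 gave an exact permutation p = 0.2 (two-sided; adjusted 0.5 over the 5 pairs). The smallest p that 3 against 3 allows is 0.1. Rpl22l1 itself was at 23.7, 18.8 and 20.1 CPM in controls and 7.62, 16.0 and 4.91 CPM in knockouts (log2 fold change -1.13, SE 0.54; edgeR adjusted p = 0.776), and Rpl22 at 72.8 to 122 CPM and 81.2 to 108 CPM (log2 fold change -0.09). Rpl22l1 has nearly all of its counts under its own symbol (99.3%).

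Rps27l, a known p53 target, was the member with the largest difference upward. It was at 16.8, 20.1 and 16.0 CPM in controls and 28.9, 42.2 and 26.9 CPM in knockouts, with no overlap (log2 fold change 0.89, SE 0.36; edgeR adjusted p = 0.753). Its parent Rps27 held only 132, 23 and 20 counts in controls and 1, 15 and 35 counts in knockouts, and 137, 36, 65, 3, 22 and 38 with its copies. The ratio of Rps27l to Rps27 was therefore set by a few counts of the parent: 1.88, 5.0 and 5.11 in controls and 9.58, 6.63 and 4.73 in knockouts (difference 2.99; exact permutation p = 0.3, adjusted 0.5). By sum the groups did not overlap (exact permutation p = 0.1, adjusted 0.5).

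The other 3 ratios overlapped between genotypes, and each mean difference was smaller in size than the SD of the knockouts. Rpl7l1 to Rpl7 had a mean of -1.51 ± 0.21 without and -1.89 ± 0.47 with the knockout (SD, n = 3 per genotype; exact permutation p = 0.3, adjusted 0.5), and Rpl36al, which is no member by its name, to Rpl36a was 2.99 ± 0.13 and 2.93 ± 1.18 (SD, n = 3 per genotype; exact permutation p = 0.8, adjusted 0.8). Rps4l, listed as Rps4y2, to Rps4x was -4.47, -4.48 and -6.45 in controls and -5.12, -5.20 and -2.18 in knockouts (exact permutation p = 0.6, adjusted 0.75). Its difference of 0.97 rested on knockout 3, without which it was -0.02. Likewise the difference of Rpl36al to Rpl36a, -0.06, was 0.54 without knockout 3. In that library Rps4y2 held 763 counts against 109 to 264 in the others, and Rpl36a 649 against 134 to 292. Rpl36a itself had a log2 fold change of 0.23 by symbol, of -0.11 by sum, and of 0.24 by sum with aligned copies alone. The parent Rpl7 stood at 72.1 to 78.2 CPM over all 6 libraries (log2 fold change 0.05), and Rpl7l1 had a log2 fold change of -0.30. The remaining pairs, with Rpl3l, Rpl10l and Rpl39l, had too few counts in the copy, with Rpl3l at 0 in every library.

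**Figure D4:**
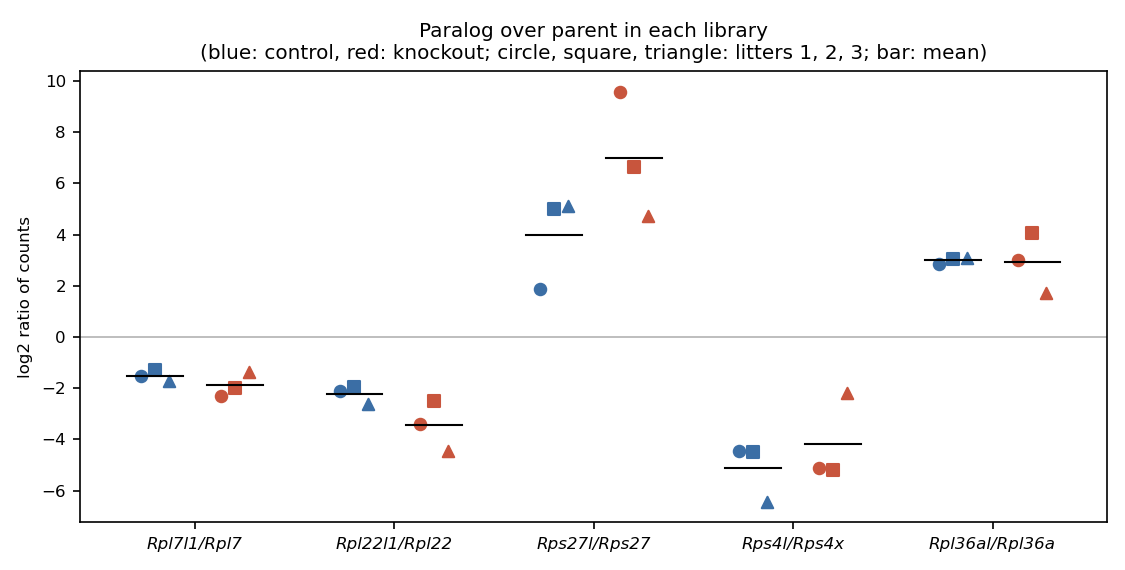
The log2 ratio of paralog to parent counts in each library for the 5 pairs measured, with a bar at the mean of each genotype. The ratio of Rpl22l1 to Rpl22 is lower in knockouts 1 and 3 than in any control, and the ratios of Rps27l to Rps27 and Rps4l to Rps4x spread widely.

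Genes around the ribosome were read the same way. Of 19 Diamond-Blackfan anemia genes, all members here, 0 passed the test and 17 were lower by symbol (median -0.27). By sum 13 of 19 were lower (median -0.10) and with library size alone 12 of 19 (median -0.08). All members together had 69 of 83 lower by symbol (median -0.25), 64 of 81 by sum (median -0.19) and 49 of 83 with library size alone (median -0.06). Among all genes tested, 49.2% were lower (median 0.01). Of 38 translation factors and chaperones listed with them, 0 passed and 28 were lower (median -0.18). The smallest p-values there were those of the initiation factor Eif4a2 (log2 fold change -0.83), the elongation factor subunit Eef1g (-0.82) and the nucleolar chaperone Npm1 (-0.70). With library size alone 21 of the 38 were lower (median -0.02). Of 72 mitochondrial ribosomal proteins, which build the separate ribosome of the mitochondrion, 0 passed and 35 were lower (median 0.04), and 29 with library size alone (median 0.21). Those with the smallest p-values were Mrpl37 (1.14), Mrpl1 (1.11) and Mrpl24 (1.73), all higher. Of 19 chaperones and late assembly factors 0 passed and 12 were lower (median -0.11), led by Pdcd2l (-2.18), Bop1 (-0.76) and Riok1 (0.46). With library size alone 7 of the 19 were lower and the median turned to 0.06.

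A few ribosomal proteins have other names and so lie outside the members. Gnb2l1, an older symbol of Rack1, a small-subunit protein that docks kinases, was at 267, 211 and 246 CPM in controls and 185, 204 and 246 CPM in knockouts (log2 fold change -0.19). Fau, which is fused to a ubiquitin-like protein, held at most 81 counts in any library under its symbol. With the copy Gm9843 and its other copies, Fau had 1205, 1667 and 2535 counts in controls and 1622, 1752 and 2641 in knockouts (log2 fold change 0.19).

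Genes of the p53 axis, which the 5S ribonucleoprotein can reach by binding Mdm2, were measured beside it, with no gene past the edgeR threshold. A link between them in these cells was not tested. Cdkn1a, which arrests the cell cycle, was at 1.93, 3.00 and 1.45 CPM in controls and at 33.5, 92.5 and 164 CPM in knockouts (log2 fold change 5.51, SE 0.67; edgeR adjusted p = 0.452). Mdm2, the ubiquitin ligase of p53, was at 82.3, 31.2 and 55.7 CPM in controls and 106, 83.1 and 122 CPM in knockouts, with no overlap (log2 fold change 0.88; edgeR adjusted p = 0.759). Trp53 (0.03) and Mdm4 (0.23) had log2 fold changes near 0.

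The start sites of the members were compared for shared letters. RefSeq promoter windows (GRCm38.p6, 250 bases before to 50 after the start) were found for 60 members. A pyrimidine run, defined as C at the start base followed by at least 4 bases that are each C or T, was present in 13 of the 60 (21.7%; 7 of 36 large and 6 of 24 small), against 3.06% of the tested genes with a window and 3.01% of all genes. The windows from 20 bases before to 20 after the start are shown for Rps6, Rps12 and Rpl12, which had the largest differences downward among members at 5 CPM or more with 1 direction in all 3 litters, for Rpl24 and Rps27l, which were higher in all 3, and for Rps15a and Rpl35a, which carry a run. Capitals mark the run, and windows without capitals have none at the annotated start.
Rps6 (chr4:86857348-86857387, minus strand): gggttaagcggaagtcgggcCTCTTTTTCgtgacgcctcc
Rps12 (chr10:23787190-23787229, minus strand): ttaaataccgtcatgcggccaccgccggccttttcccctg
Rpl12 (chr2:32961692-32961731, plus strand): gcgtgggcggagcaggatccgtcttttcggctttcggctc
Rpl35a (chr16:33056462-33056501, plus strand): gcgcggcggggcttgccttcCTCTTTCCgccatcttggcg
Rps15a (chr7:118116128-118116167, minus strand): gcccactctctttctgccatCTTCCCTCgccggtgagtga
Rpl24 (chr16:55966255-55966294, plus strand): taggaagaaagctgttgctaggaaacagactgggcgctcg
Rps27l (chr9:66946066-66946105, plus strand): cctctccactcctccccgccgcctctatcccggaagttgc
Rps6, Rpl35a and Rps15a have runs of 9, 8 and 8 bases, and Rpl24 and Rps27l have none. Rpl35a has 3 annotated starts and Rps27l has 2, of which 1 is shown for each, and the other starts have no run. Rps27, with few counts and the largest difference of all members, has a run of 7 bases and is not shown. Of the 13 members with a run, 12 had a log2 fold change below 0 (median -0.51), and of the 47 without one, 38 did (median -0.25). The run was scored only at the annotated start base, so a start annotated a base away counts as without one. Rpl12, scored without a run, has a stretch of C and T directly after its start base. The classes may therefore be mixed, and their difference was not tested.

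Within the 300-base windows, GGAAGT or its complement ACTTCC, the core letters bound by ETS-family factors, was found in 30 of 60 members, against 32.8% of tested genes and 26.5% of all genes. AAGATGG or CCATCTT, the core letters of YY1 sites, was found in 10 members (16.7%), against 8.57% and 7.28%. GGGCGG or CCGCCC, the letters of the GC box, was found in 38 members (63.3%), against 68.5% and 38.2%. These are matches of letters on either strand and describe the windows only.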

How the data were processed

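Polyadenylated RNA of FACS-purified HSCs was sequenced in 6 libraries, 3 per genotype. The deposited files hold raw counts per gene symbol. Per the submitters' processing notes, CASAVA 1.8.4, TopHat2, Picard 1.126, HTSeq 0.6.0, DESeq 3.0 and bedtools 2.17.0 were used with build mm10. Read length, strand setting and annotation release are not given in the sources used here. The deposited count lists end in 5 tallies of unassigned reads, which were left out. Reads tallied as having more than 1 alignment made up 13.4% to 18.3% of reads and were given to no gene.

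Genes were kept with edgeR's filterByExpr (13646 genes, all 83 members), scaled with TMM and tested with edgeR 4.0.16's quasi-likelihood test (R 4.3.3), genotype only, with Benjamini-Hochberg adjustment over all genes tested. The scripts were tested on simulated data with 200 genes changed by 3 on the log2 scale. At a coefficient of variation between replicates of 0.2, edgeR and DESeq2 each recovered 100% of them. At 0.8, edgeR recovered 0% and DESeq2 47%, with 34.7% of the DESeq2 calls false. The common value in these data was 0.82, whereas single genes differ from it and the simulation gave all genes the same value. Fold changes are knockout over control. Samples were paired by the litter given in the labels. Deviations from the group means of the 2 libraries of a litter correlated at -0.022, -0.075 and 0.0034 in litters 1 to 3. The block on litter changed no call. Paralog ratios are log2 of counts plus 0.5. Copies are processed pseudogenes of GENCODE M21 aligned with blastn 2.17.0 to the members' transcripts and added to the best-scoring parent, plus 34 features with a member's name and a -ps suffix that were not so aligned, 6 of them annotated as protein coding. DESeq2 1.42.0 and limma 3.58.1 (voom) served as alternatives, beside other scaling factors, filters and leaving out each library. Levels per kilobase use the union of annotated exons.

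Named in the text were Dpy30; per subunit, of members at 5 CPM or more with 1 direction in all 3 litters, the 5 with the largest differences each way; the 3 with most counts; the stalk, 5S and paralog lists with Rps19, Rps14, Rps6, Rpsa, Rps27a, Rpl38, Rpl10 and Rps4x; and in other lists the 3 smallest p-values. Members shown for their share of counts, Rps29, Rpl15 and the members whose groups did not overlap were named after their values were seen. Some members that this rule names are not reported here. Members and lists were chosen with earlier results of these data known. Counts carry no molecular tags, so PCR copies are included.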

Additional observations from a re-analysis of the deposited data

How the results depend on the processing

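No member passed the threshold in any of the 21 alternatives. The count of genes past the threshold, 0 with edgeR, was 139 with DESeq2, 132 with DESeq2 on the sums with copies, 1 with no filter on low counts and 1 with at least 10 counts in every sample. The median of the small-subunit members was -0.49 with upper-quartile factors and -0.16 with library size only, and it ran from -0.37 to -0.27 when leaving out each library. That of the large subunit ran from -0.33 to -0.08 and was least without knockout 1. With the replicate block on litter, 0 genes passed and the medians were -0.25 and -0.37. The paralog difference of Rps4l ran from -0.023 to 1.49 and that of Rpl36al from -0.63 to 0.54 over the left-out libraries, both reversed without knockout 3. Other directions that reversed were those of Rps4y2 (0.83 as reported), Rpl38 (0.27), Rpl36a (0.23), Rpl5 (0.19), Rpl11 (-0.27) and of Rplp0, Rpl8, Rpl22 and Rpl7, which lay between -0.16 and 0.05. The cause was not tested. With library size only, Rplp0 was 0.021, Rpl8 0.062 and Rpl22 0.11, and with upper-quartile factors Rpl7 was -0.072. Leaving out each library gave -0.28 to 0.077 for Rpl8, -0.41 to 0.57 for Rpl5, -0.25 to 0.53 for Rpl38, -0.27 to 0.086 for Rpl22, -0.50 to 1.23 for Rps4y2 and -0.80 to 0.61 for Rpl36a. With copies added, Rpl5 was -0.040 (aligned copies alone -0.039, block -0.030, DESeq2 -0.021, without knockout 3 -0.037), Rpl38 -0.061 (aligned copies alone -0.060, block -0.064, DESeq2 -0.042, without knockout 3 -0.12), Rpl36a -0.11 (block -0.14, DESeq2 -0.094, without knockout 3 -0.37) and Rpl11 0.0093 with DESeq2, while Rps4y2 was -0.50 without knockout 3. Named -ps copies alone gave -0.017 for Rpl38 and -0.14 for Rpl36a. Rpl36a was -0.16 with the block and -0.12 with limma-voom. Symbols with few counts, such as Rps27, Rps29 and Rpl23a, limit their own fold changes.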
